A study of Mus musculus with 8 samples.

Results

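The genes described here encode 8 self antigens that serve as models of immune tolerance, most of them targets of autoimmune disease: the hormone insulin (Ins2), the enzyme glutamate decarboxylase (Gad1), the thyroid hormone precursor thyroglobulin (Tg), the myelin proteins Mog and Mbp, the retinal retinoid carrier Rbp3, the α subunit of the muscle acetylcholine receptor (Chrna1) and the milk protein β-casein (Csn2). The genes were chosen by name, and all consensus regions of open chromatin that overlapped an annotated gene body or the 20 kb on either side of it were taken as its regions. These windows held 34 of the 57124 regions of the set, around 8 of 21938 protein-coding genes. Open chromatin was mapped by ATAC-seq (Tn5 transposase inserts adapters where DNA is accessible) in mouse medullary thymic epithelial cells (mTECs). The 8 samples were sorted by flow cytometry from BL6N6 wild-type mice a few weeks old, as CD45neg, Epcampos, CDR1neg cells, into 4 groups with 2 biological replicates each: MHCIIlo and MHCIIhi cells without Tspan8 (Tspan8neg), and MHCIIlo and MHCIIhi cells with it (Tspan8pos). No agent was given. The region set was merged over samples, so a region may stem from any of the 4 groups. The read counts carried column names that match no sample label and were not used, so the values below are positions, widths and sequence features, with no spread between replicates, and the groups are not compared.

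mTECs transcribe many genes that are otherwise restricted to single tissues, a process called promiscuous gene expression, and display the resulting self peptides to developing T cells. Thymocytes that bind these peptides strongly are deleted or become regulatory T cells. The autoimmune regulator Aire and the zinc-finger protein Fezf2 drive part of this program, and each tissue-restricted antigen (TRA) is made by only a small share of mTECs at a time. In a pool of many cells, DNA that is open in few of them may give too few reads for a peak. Whether this bears on the antigen genes was not tested, since the read counts were not used. Among marker genes, 10 of 10 listed for thymic epithelium, Aire and Epcam among them, had a region at the promoter. So did 0 of 14 genes of thymocytes, other leukocytes, fibroblasts and endothelium, and 48.6% of all protein-coding genes. Not all of the 10 are particular to epithelium. They include the MHC class II gene H2-Ab1, and by the paper thymic dendritic cells and B cells also present peptides on MHC class II. Of the 14, the fibroblast gene Pdgfra had a region centred 277 bases from a start, past the downstream limit used for promoters, and Col1a1 had one at 1015 bases.

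Of the 8 antigen genes, 2 had a region at their own promoter, 5 had other regions only, and 1 had no region in its window. A promoter region was one whose centre lay from 1000 bases upstream to 100 bases downstream of an annotated transcription start. Csn2 and Mbp formed the first class. Ins2, Gad1, Tg, Mog and Chrna1 formed the second, and Rbp3 was alone in the third. Of all protein-coding genes, 48.6% had a promoter region. At least 1 region lay in the window of 7 of the 8 genes, and in the windows of 81.5% of all protein-coding genes. Promoters were assigned first: 2 of the 34 regions were promoters of an antigen gene and 3 were promoters of another gene. Of the remaining regions, 23 lay in introns, 6 were intergenic and 0 were centred in an exon. The Mbp window alone held 14 of the 23. In the whole set 12501 of 57124 regions were at a promoter of some gene. Whole-set shares of the other classes are not given, so these counts are not read as a trait of antigen genes. A promoter region could also overlap an exon, as that of Csn2 did.

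**Figure D1:**
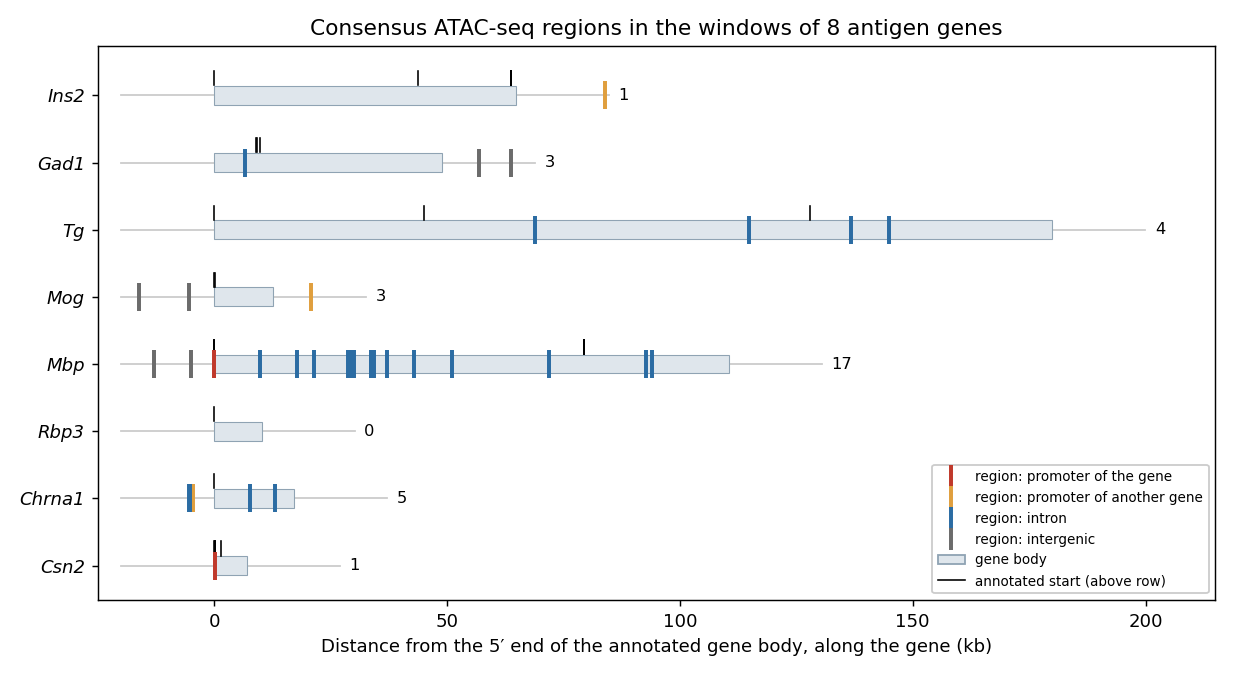
Positions of the 34 consensus regions along the 8 antigen genes. The x axis is the distance in kb from the 5′ end of the annotated gene body in the direction of transcription, pale bars are gene bodies, grey lines the windows, short black ticks above a row the annotated starts of the basic set, coloured marks region centres by class and the number at the right of a row its regions. Only Csn2 and Mbp have a red mark at a start, Mbp holds 17 of the 34 regions and Rbp3 holds 0.

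Csn2 encodes β-casein, which is made in the lactating mammary gland, where prolactin acts through the transcription factor STAT5. The gene lies on the minus strand at chr5:87692624-87699630 (GRCm38). Its single region, at chr5:87699402-87699527, was 126 bases wide and held 3 of the 5 distinct annotated starts, at positions 87699425, 87699421 and 87699409. Its centre lay 39 bases upstream of the first of these. The other starts, 87699630 and 87698092, lay 166 and 1372 bases from the centre. All 126 bases are also annotated as untranslated region in at least 1 Csn2 transcript. No other region was found within 20 kb, nor within 50 kb. The region was narrow: 27.5% of all regions and 8.61% of promoter regions were narrower. It held 1 match to the STAT motif TTCNNNGAA, searched on both strands, which occurred in 3.45% of 5040 regions of like width (within 10%). The stretch around the match, chr5:87699500-87699529 on the minus strand of GRCm38, is shown because it holds this match, with the match in capitals. The match lies within the region, and the first 2 bases of the stretch lie just outside it.
Csn2 promoter: atcacgtagacTTCTTGGAAttgaagggac

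The Csn2 promoter was also low in GC content beside all RefSeq promoters, whether or not a region lay over them. Over the 300 bases from 250 upstream to 50 downstream of the RefSeq start, its GC content was 38.7%, and only 7.68% of 16522 RefSeq promoters had less. It held 2 CpG dinucleotides, a ratio of observed to expected CpG of 0.179. Promoters with a ratio under 0.6 are called CpG-poor here. Among CpG-poor promoters 24.2% (2002 of 8282) overlapped a region, and among CpG-rich promoters 92.3% (7606 of 8240) did. RefSeq promoter sequences could be matched for 5 of the antigen genes (Gad1, Mog, Rbp3, Chrna1 and Csn2) and not for Ins2, Tg and Mbp. Of the 4 CpG-poor promoters among them, Csn2 overlapped a region, over 126 bases, and Mog, Rbp3 and Chrna1 did not.

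Gad1 showed the opposite pattern, a CpG-rich promoter without a region. It encodes a form of glutamate decarboxylase, the enzyme that makes the inhibitory transmitter GABA in neurons, and lies on the plus strand at chr2:70553072-70602014. The RefSeq promoter had a GC content of 60.0%, 21 CpG dinucleotides and a ratio of 0.849, higher than in 76.4% of promoters. It belonged to the 634 of 8240 CpG-rich promoters (7.69%) that overlapped no region. Rbp3, which carries retinoids between photoreceptors and pigment epithelium and is the antigen of experimental uveitis, had a CpG-poor promoter with 2 CpG dinucleotides and a ratio of 0.11. Its gene body is on the plus strand at chr14:33954003-33964216, and the region nearest to its start was 57126 bases upstream, at chr14:33896747-33897007, 261 bases wide. The promoter stretches that ended before the first basic start, chr2:70561879-70562041 and chr14:33953753-33954002, both plus strand of GRCm38 from RefSeq, are given because they are promoters without a region and of contrasting composition, with each CG in capitals. The Gad1 stretch stops ahead of most of the 21 CpG dinucleotides, which lie downstream of it.
Gad1 promoter: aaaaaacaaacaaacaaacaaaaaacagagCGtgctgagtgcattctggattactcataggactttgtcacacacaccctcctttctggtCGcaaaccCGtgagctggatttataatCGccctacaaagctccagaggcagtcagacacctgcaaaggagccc
Rbp3 promoter: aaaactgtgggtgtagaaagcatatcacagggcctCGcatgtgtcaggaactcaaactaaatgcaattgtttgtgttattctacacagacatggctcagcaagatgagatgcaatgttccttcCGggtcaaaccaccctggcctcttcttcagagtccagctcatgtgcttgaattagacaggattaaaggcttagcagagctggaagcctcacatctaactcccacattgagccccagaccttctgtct

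**Figure D2:**
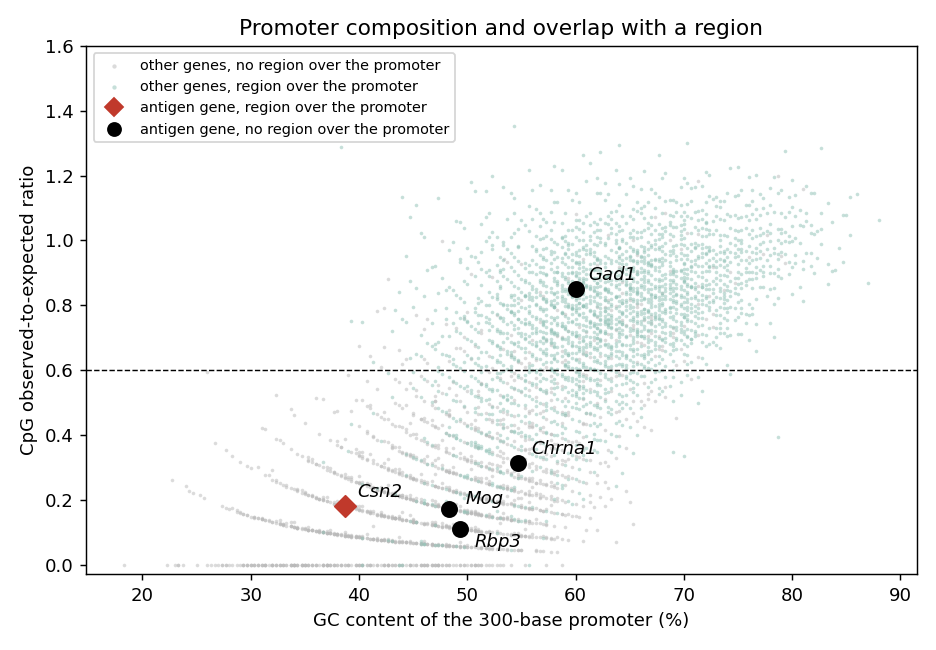
Composition of 300-base RefSeq promoters. The x axis is GC content in percent, the y axis the ratio of observed to expected CpG, small dots are 1 in 4 of the promoters of protein-coding genes (green with a region over the promoter, grey without), large symbols are the 5 antigen genes with a RefSeq promoter and the dashed line is the limit of 0.6. Csn2 is the one antigen promoter with a region, at 38.7% GC, and Gad1 is the one above the line, without a region.

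In place of a promoter region, Gad1 had 3 regions elsewhere. The first, at chr2:70559567-70559754, was 188 bases wide and centred 2382 bases upstream of the 5′-most basic start, in an intron of the antisense transcript Gad1os. It fell inside the annotated gene body only because that body begins farther upstream than the basic starts. The second was the widest region of any window outside Mbp, with 523 bases at chr2:70609770-70610292, intergenic and 8017 bases past the gene end. The third, 78 bases wide, lay 14767 bases past the end. The second region held 1 STAT match, found in 12.8% of 3637 regions of like width, and 1 match to the AP-1 motif TGANTCA, found in 21.3%. The first is printed whole because it is the open region closest to a Gad1 start, and the second by its central 300 bases, chr2:70609881-70610180, because it is the widest (plus strand, GRCm38, STAT and AP-1 matches in capitals). The first held no match to the capitalised motifs.
Gad1 region 1: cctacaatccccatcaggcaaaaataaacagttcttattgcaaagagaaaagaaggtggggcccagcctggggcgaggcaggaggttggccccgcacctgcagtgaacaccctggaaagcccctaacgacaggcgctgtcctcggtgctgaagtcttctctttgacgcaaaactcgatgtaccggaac
Gad1 region 2: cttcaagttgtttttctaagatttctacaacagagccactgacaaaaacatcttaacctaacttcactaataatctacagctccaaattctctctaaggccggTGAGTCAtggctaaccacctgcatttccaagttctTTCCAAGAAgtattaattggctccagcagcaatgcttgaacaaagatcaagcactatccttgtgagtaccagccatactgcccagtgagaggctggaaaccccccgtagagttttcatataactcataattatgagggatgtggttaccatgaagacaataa

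Chrna1, the receptor subunit that carries the main autoantibody target in myasthenia gravis, had 5 regions in a window of 57.1 kb. The gene lies on the minus strand at chr2:73563215-73580338 and has a single basic start, at its 5′ end. In its introns lay a region of 277 bases, 13076 bases downstream of the start, and one of 283 bases, 7607 bases downstream. The other 3 formed a group upstream, at 4428, 5087 and 5296 bases from the start, with widths of 89, 146 and 81 bases and gaps of 542 and 95 bases between them. This group followed the antisense transcript Chrna1os: the region of 89 bases was its promoter, 84 bases from its start, and the others lay in its intron. The region nearest to the Chrna1 start was thus, by position alone, classed as a promoter of Chrna1os rather than of the receptor gene. The intronic region at chr2:73572590-73572872 and the upstream region at chr2:73585353-73585498 each held 1 AP-1 match, which 28.4% of 4465 and 22.1% of 4954 regions of like width also had. They are shown on the minus strand (GRCm38), the strand of the gene, as one open stretch inside and one before it, with the AP-1 match in capitals.
Chrna1 region 2: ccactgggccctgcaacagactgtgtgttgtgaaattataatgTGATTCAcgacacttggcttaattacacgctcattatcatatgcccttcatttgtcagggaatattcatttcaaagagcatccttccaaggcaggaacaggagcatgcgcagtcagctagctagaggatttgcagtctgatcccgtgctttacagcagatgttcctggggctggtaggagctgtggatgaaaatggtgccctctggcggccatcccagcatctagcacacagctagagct
Chrna1 region 4: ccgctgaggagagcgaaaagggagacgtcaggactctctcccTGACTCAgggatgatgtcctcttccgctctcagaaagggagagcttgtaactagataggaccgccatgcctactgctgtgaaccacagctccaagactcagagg

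The last region of the upstream group, 81 bases wide, had the highest share of repeat sequence of the 34, 44.4%. It was also among the 2 regions of the 34 with a match to the ETS motif GGAAGT, against 20.9% of all regions. Of 5321 regions of like width, 7.27% held a match. The ETS family includes the factors Ehf and Elf3, which the study examined in mTECs.

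Mog, a minor protein on the outer surface of myelin and the antigen of a widely used model of multiple sclerosis, had 3 regions in 52.7 kb and none inside its body, chr17:37010743-37023398 on the minus strand. Upstream of the start lay a region of 422 bases at a distance of 5464 bases, and one of 285 bases at 16054 bases. The latter was closer to the start of Gabbr1, a GABA-B receptor subunit, at 6514 bases. The third, 450 bases wide, was the promoter of Zfp57, a zinc-finger gene of imprinting control, and lay 8069 bases past the end of Mog with 326 of its bases in Zfp57 exons. The region 5464 bases upstream was the only one nearest to a Mog start, and its central 300 bases, chr17:37028713-37029012 on the minus strand, are shown for this reason. In capitals is 1 match to the KLF motif GGGNGTGG, read on the other strand, which 24.0% of 3924 regions of like width held.
Mog region 2: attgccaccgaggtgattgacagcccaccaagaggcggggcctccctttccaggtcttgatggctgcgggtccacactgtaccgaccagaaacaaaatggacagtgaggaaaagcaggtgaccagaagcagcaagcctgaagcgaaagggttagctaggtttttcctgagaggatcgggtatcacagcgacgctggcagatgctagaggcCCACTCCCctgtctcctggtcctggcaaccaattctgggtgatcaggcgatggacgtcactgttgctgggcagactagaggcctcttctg

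Ins2, one of the mouse insulin genes and the one transcribed in thymus, had 1 region. By position this was a promoter of the neighbours Igf2 and Igf2os. The annotated body, chr7:142678656-142743381 on the minus strand, is long because 2 of its 8 starts, 142699510 and 142743381, lie far upstream. The other 6 starts fall between 142679533 and 142679726, and the RefSeq body covers 1071 bases. The region, chr7:142659318-142659598, was 281 bases wide, 19198 bases past the gene end and 31 bases from a start of the growth factor gene Igf2, with 172 bases in an Igf2 exon. Its GC content of 79.7% was the highest of the 34 regions. With gene body alone or 5 kb on either side the window of Ins2 held 0 regions, and with 50 kb it still held 1. As annotated, the window was emptier than most. Of 2867 genes with a window of like length (0.8 to 1.25 times), 93.8% had as many regions or more, and the median was 4. This comparison rests on the 2 starts far upstream. With the RefSeq body the window was shorter and also held 1 region, and it is not compared here with windows of its own length.

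Tg, the largest of the 8 genes at 180.0 kb (chr15:66670753-66850721, plus strand), encodes the protein on which thyroid hormone is formed. It had 4 regions, all in its introns and none near the start at the 5′ end, from which the nearest region was 69002 bases away. In the direction of transcription they were 155, 79, 275 and 132 bases wide. The last 3 lay at the same time in introns of Sla, a gene for an adaptor of antigen receptor signalling that is nested within Tg on the other strand, and the last 2 were 5154 and 3063 bases from a start of Sla. The first lay also in an intron of another gene, Gm17140, 4572 bases from its start. To which of the genes these 4 regions belong cannot be told apart by position. The nearest distance to any basic Tg start was 8689 bases, to a start inside the gene. Windows of like length held a median of 5 regions, and 70.5% of 874 such genes had 4 or more.

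Mbp stood apart from the other 7 genes in number. Its window of 150 kb (gene body at chr18:82475146-82585637, plus strand) held 17 of the 34 regions, of which 1 was at the promoter, 14 were intronic and 2 intergenic. Of 1663 genes with a window of like length, 0.962% had as many or more, and their median was 5. The locus has 2 sets of starts. From the outer set the longer golli transcripts arise, which are known from thymus and immune cells as well as brain, and from the inner set come the transcripts of classic myelin basic protein, a main component of myelin in oligodendrocytes. The promoter region, 82474936 to 82475491, was 556 bases wide and held the 3 outer starts, 82475146, 82475148 and 82475162. It had a GC content of 67.8% and a CpG ratio of 0.721, and 59.2% of promoter regions in the whole set were narrower. The inner starts, 7 positions used by 11 transcripts within 111 bases, lay 79308 bases farther downstream. No region was at any of them, and the nearest, 236 bases wide, was centred 7495 to 7605 bases upstream. By place, 12 of the 17 regions lay between the outer and the inner starts, 2 lay downstream of the inner starts, and 2 lay upstream of the gene at 5003 and 12854 bases.

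The intronic regions of Mbp were 89 to 417 bases wide. They came closest together in a stretch of 8692 bases, from 82503784 to 82512475, which held 6 of them and was picked out after the positions were seen. Gaps between neighbouring regions of the window ranged from 344 to 20749 bases, with a median of 5144. Of the 17 regions, 13 had no repeat-masked base, and the highest repeat share was 17.6%. They covered 4044 bases, 2.69% of the window, the highest share of the 8 genes. The next were Mog with 2.2% and Chrna1 with 1.53%.

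Set against window length, the genes ordered as follows. Mbp had 11.3 regions per 100 kb, Chrna1 8.75 and Mog 5.7, which were above the median of all protein-coding genes, 3.86 (quartiles 1.5 and 6.88). Gad1 with 3.37, Csn2 with 2.13, Tg with 1.82, Ins2 with 0.955 and Rbp3 with 0 were below it. The value of Ins2 depends on its long annotated body. A density of 0 was shared by 18.5% of all protein-coding genes. Among the 12528 genes with a window of like length to that of Rbp3, 26.7% had it. The 2 genes with a promoter region thus differed in density. Mbp had the highest of the 8, while the Csn2 window held fewer regions per 100 kb than that of Gad1 or Chrna1, both without a promoter region.

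**Figure D3:**
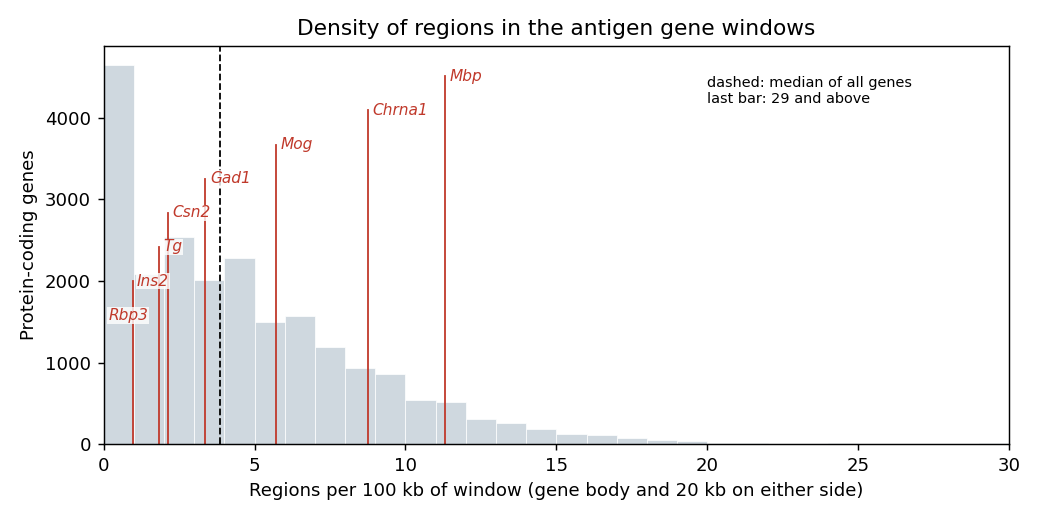
Regions per 100 kb of window for all protein-coding genes. The x axis is the number of regions per 100 kb of gene body and flanks, grey bars count genes in steps of 1, the last bar holds genes at 29 and above, red lines mark the 8 antigen genes (their height has no meaning) and the dashed line is the median of 3.86. Mbp, Chrna1 and Mog lie to the right of the median and the other 5 to the left.

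The 34 regions were 78 to 556 bases wide, with a median of 211 (quartiles 119.25 and 292.5). The whole set had a median of 212, and the regions of the set outside promoters one of 176. Intronic regions in the windows had a median of 166 bases and intergenic ones of 290. In the Mbp window the median was 228 and in the other windows 188. Under 100 bases were 7 of the 34, against 9778 of 57124 in the whole set, and 17 of the 34 had at least 200, against 52.6% of the whole set. The promoter regions of Csn2 and Mbp differed widely, 126 against 556 bases, on either side of the median of all promoter regions, 482.

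**Figure D4:**
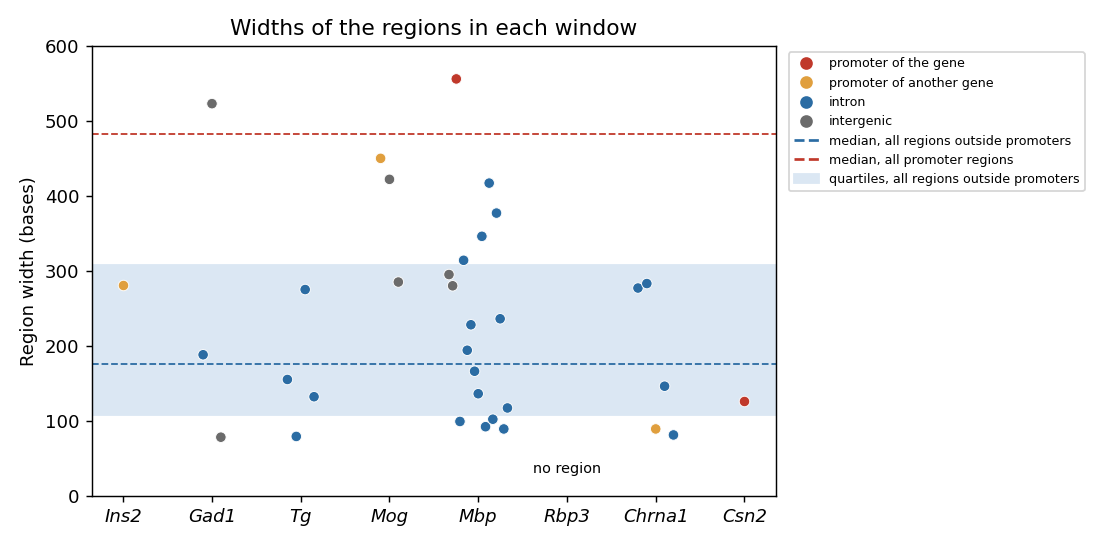
Width in bases of every region, by gene and class. Each point is 1 region, in order of position within a gene; the dashed lines are the medians of all regions outside promoters (176 bases) and of all promoter regions (482 bases), and the band holds the quartiles of the former. Most points lie in or near the band, the Csn2 promoter region is far below the promoter median and that of Mbp is above it.

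In GC content the regions lay close to the whole set. Their median GC content was 53.2% (range 38.9% to 79.7%, the lowest in Csn2 and the highest at the Igf2 promoter), against 53.9%. No masked base was present in 23 of the 34, and in 51.3% of all regions. Matches to 8 short motifs were counted on both strands. The AP-1 motif was in 11 of 34 regions (21.3% of all regions), the E-box CANNTG in 21 (70.8%), CCAAT in 7 (27.4%), KLF in 4 (16.5%), STAT in 3 (7.46%) and ETS in 2 (20.9%). The TATA box TATAAA and the POU motif ATGCAAAT were in 0 of 34, and in 6.6% and 1.95% of all regions. These are counts of letters, and narrow regions have fewer chances of a match. The shares are over all regions, 12501 of them at promoters, while most of the 34 lay outside promoters. Shares among regions outside promoters alone are not given.

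Related genes are set beside the share of all protein-coding genes with a promoter region, 48.6%. Among the caseins, only Csn2 of 5 had a promoter region. Ins1 and Gad2 had none, nor any region in their windows, the nearest being 68918 and 99771 bases from a start. No muscle acetylcholine receptor gene of 5 had one, although a region was centred 290 bases from a start of Chrnb1. Of 4 retinal antigens there was none, while 2 of 7 myelin genes (Mbp and Cnp, an enzyme of myelin-forming cells) and 1 of 3 thyroid genes (Tshr, the receptor for thyrotropin) had one. In a list of 48 other autoimmune or model antigen genes, 47 were found in the annotation, and 7 of these (14.9%) had a promoter region, 29 had other regions only and 11 had none. Over all protein-coding genes 81.5% had at least 1 region in the window. The 7, by width of the widest promoter region, were Crp with 694 bases (C-reactive protein, made in liver), Ptprn2 with 586 (an islet antigen), Tshr with 559, Lrp4 with 205 (the agrin receptor of muscle), Cnp with 180, Casr with 129 (the calcium sensor of the parathyroid) and Dsg1a with 105 (a desmosome protein of skin). Of the list, 29 genes had a RefSeq promoter sequence. Among 25 that were CpG-poor 1, Crp, was overlapped by a region (24.2% of all CpG-poor promoters), and among 4 that were CpG-rich 3 were (Chrnb1, Cnp and Ptprn2) and Chga was not (92.3% of all CpG-rich promoters).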

How the data were processed

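ATAC-seq libraries came from 8 samples of sorted mTECs in 4 groups of 2. The authors aligned reads to mm10 with Bowtie2, removed mitochondrial, multimapping, low-quality and duplicate reads with SAMtools and Picard, called broad peaks with MACS2, merged them with bedtools and counted reads with featureCounts 2.0.3. The sources used here do not give whether peak calling was done on single or pooled samples. The deposited values used were region coordinates and widths in bases. The 8 count columns match no sample label and were not used, so depth per sample is not analysed here and no test between groups was run. Since multimapping reads were dropped, repeated sequence can lack regions, and width depends on peak calling and merging.

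Regions were annotated with GENCODE M21 (GRCm38) in Python 3.11.15 with pandas 2.3.3, numpy 2.4.6 and pysam 0.24.0. Windows were gene bodies with 20 kb on either side. Starts came from the basic set, and a promoter region was centred from 1000 bases upstream to 100 downstream of a start. A region's class was promoter, otherwise exon, intron or intergenic at its centre. Promoter sequences (250 bases before to 50 after the start) were from RefSeq, CpG-rich at an observed-to-expected ratio of 0.6 or more. Calls and motif matching were tested on simulated data. Named genes were the 8 antigens, genes with a promoter region in their windows and listed antigens with a promoter region. Genes named beyond these, such as relatives of an antigen, were chosen after their values were seen. The genes and lists were chosen with earlier results of these data known. Alternatives changed the window, the annotation, the definition of a promoter, and the minimum width and repeat share of regions.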

Additional observations from a re-analysis of the deposited data

How the results depend on the processing

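Of 30 alternative settings over 5 results, 27 stayed within 1.5 times of the value reported. With regions of at least 200 bases alone, the antigen genes with a promoter region fell from 2 to 1 (Mbp, since the Csn2 region is 126 bases wide), the related antigen genes with one from 7 to 4, and the regions in the windows from 34 to 17, while the share of all protein-coding genes with a promoter region went from 48.6% to 44.4%. Under the other definitions of a promoter or annotation 2 antigen genes had a promoter region each time, and 5 to 9 of the related genes, with 48.4% to 63.1% of all protein-coding genes. Where a region had to overlap a start, the related genes with one were 5 and the share of all genes was 56.4%. Other windows gave 5 to 7 genes with a region and 23 to 44 regions, with median widths of 188 to 232 bases. These totals rest largely on Mbp. In the other windows the regions went from 17 to 8 with the gene body alone, 9 with 5 kb and 27 with 50 kb on either side. With the gene body alone or 5 kb, Ins2 and Mog joined Rbp3 among the genes with no region. The shares of all protein-coding genes with a region in these other windows are not given. The use of RefSeq gene bodies, 3 of the settings, was added after seeing the data. Because the region set is merged, no sample can be left out. The planned comparison of accessibility between groups and its alternatives were not run, since the count columns could not be assigned to samples. No paired analysis was possible because those columns carry no replicate number of the labels. A promoter without a region is one where no peak was called, not one shown to be closed.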
